A study of Mus musculus with 24 samples.

Results

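A set of 52 genes that copy DNA in S phase, or that are switched on for it, was followed across 8 mouse melanoma cell lines. They were the rows of the normalised expression table that carry a fixed list of 52 gene symbols, and all 52 were among its 12010 genes. Their values played no part in that rule, but the list was chosen with earlier results of these data known.

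The question the lines address is what MITF, TFE3 and TFEB, related transcription factors of the MiT family, each contribute to gene expression in melanoma. B16-F10 is a mouse melanoma line, and the cells used carry a luciferase reporter (luc2), which the knockout lines share with the parental line. Messenger RNA was sequenced from the parental cells, the MITF KO, the TFE3 KO, the TFEB KO, the TFEB/TFE3 double knockout (DKO), the MITF/TFE3 DKO, the MITF/TFEB DKO and the triple knockout (TKO), with 3 libraries of each line and 24 in all. Each knockout line was isolated as a clone, so that the lost gene and the history of the clone cannot be told apart. The 4 lines that lack MITF go back to an MITF KO line with a frameshift in Mitf and are not independent of each other. From a minor band on a blot, the authors propose that this line may make a little truncated MITF. Lines are called without MITF here by their labels. Nothing in the labels says that the 3 libraries of a line came from separate cultures, so p-values measure only the spread between these libraries, which may be technical.

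DNA replication begins at origins, where the origin recognition complex, CDC6 and CDT1 load the MCM helicase in G1. In S phase the helicase is activated by CDC45 and the GINS complex, primase starts each strand, polymerases delta and epsilon extend it on the PCNA clamp, and FEN1 and ligase 1 join the pieces of the lagging strand. Many of these genes are transcribed in late G1 and S phase under E2F transcription factors, so their messenger RNA is a common readout of proliferation. The libraries were made from bulk cultures, in which a smaller share of cells in S phase and less RNA of these genes per cell cannot be told apart.

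The stretch upstream of the start site is shown for 4 members whose levels are described below, because E2F sites and CCAAT boxes are common there in replication genes and because MiT factors bind the letters CACGTG, the E-box, and its variant CATGTG. Each run is the 250 bases before the annotated start of the canonical transcript in GENCODE. It is written 5′ to 3′ on the strand of the gene, on the build GRCm39 (mm39), and overlaps no annotated exon. Capitals mark exact matches on either strand to TTCCCGC and to TTGGCGC (forms of the E2F site), to the CCAAT box, and to the MiT letters just given. Mcm10 lies on chr2:5017630-5017879 (minus strand), Mcm5 on chr8:75835890-75836139 (plus strand), Rrm1 on chr7:102090640-102090889 (plus strand) and Pold3 on chr7:99770889-99771138 (minus strand).
Mcm10: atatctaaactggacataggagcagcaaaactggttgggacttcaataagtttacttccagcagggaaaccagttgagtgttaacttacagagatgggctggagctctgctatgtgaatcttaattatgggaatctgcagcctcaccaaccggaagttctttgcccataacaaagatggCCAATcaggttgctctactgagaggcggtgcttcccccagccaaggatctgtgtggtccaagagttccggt
Mcm5: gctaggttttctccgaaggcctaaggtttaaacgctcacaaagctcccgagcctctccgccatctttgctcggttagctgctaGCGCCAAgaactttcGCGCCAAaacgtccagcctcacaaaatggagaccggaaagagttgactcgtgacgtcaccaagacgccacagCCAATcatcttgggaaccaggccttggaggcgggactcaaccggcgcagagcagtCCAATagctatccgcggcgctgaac
Rrm1: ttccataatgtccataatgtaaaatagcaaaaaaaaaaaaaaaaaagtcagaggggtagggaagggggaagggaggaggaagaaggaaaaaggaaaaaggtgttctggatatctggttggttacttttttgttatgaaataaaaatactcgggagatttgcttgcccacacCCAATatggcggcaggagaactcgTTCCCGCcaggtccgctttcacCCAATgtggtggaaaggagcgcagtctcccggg
Pold3: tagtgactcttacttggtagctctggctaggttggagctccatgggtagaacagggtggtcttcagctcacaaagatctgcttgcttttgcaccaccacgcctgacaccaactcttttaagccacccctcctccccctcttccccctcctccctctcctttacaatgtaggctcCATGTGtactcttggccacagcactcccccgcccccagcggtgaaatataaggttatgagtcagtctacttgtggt

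The Mcm10 stretch held 1 CCAAT box, whose first base was 71 bases before the start. In Mcm5, the E2F letters TTGGCGC stood 2 times on the opposite strand, 167 and 152 bases before the start, together with 2 CCAAT boxes. Rrm1 held TTCCCGC 55 bases before the start between 2 CCAAT boxes, and Pold3 held CATGTG 76 bases before it. All 52 members had a promoter of this length in the annotation, and 10 of them (19.2%) held TTCCCGC or TTGGCGC, against 9.42% of the promoters of 11659 genes in the table. CCAAT stood in 27 member promoters (51.9%) and in 36.4% of all of them. CACGTG stood in 4 member promoters (7.69% against 7.97%) and CATGTG in 5 (9.62% against 7.48%). A match of letters is a description of this window and says nothing of binding.

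The libraries held 18300902 to 26667877 reads on genes (median 22445535.5). Values are read counts divided by the depth of the library (CPM), with depths adjusted by the TMM method, and a gene's reads come from its 3′ end, so a level does not grow with gene length. Tfeb was at 2.06 to 5.27 CPM in the 12 libraries of lines labelled as lacking it and at 7.87 to 22.7 CPM in the other 12, and Tfe3 at 8.01 to 21.8 CPM against 31.1 to 62.5 CPM. Mitf was at 326 to 1470 CPM in the lines lacking it and 646 to 903 CPM in the others, and reads from its 3′ end do not check a frameshift. All 7 melanocyte markers were in the table, and summed to 15830 to 19640 CPM in MITF/TFEB DKO and TKO cells and 26130 to 40320 CPM in the other lines. Of 9 markers of endothelial, epithelial, immune and stromal cells, 6 were not among the genes of the table and 3 (Pecam1, Krt14 and Col1a1) summed to 1.96 to 33.1 CPM per library. That sum was 1.96 to 2.77 CPM in MITF KO cells and 26.4 to 33.1 CPM in TFEB/TFE3 DKO cells, and the part of either list in the results was not tested.

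Most replication genes were lower in 3 of the 4 lines without MITF, and 24 of 52 in the other, the TKO. A gene was called higher or lower at an adjusted p under 0.05 in limma's test, with Benjamini-Hochberg adjustment over all 12010 genes, and changes are given as log2 differences of CPM + 1. In the MITF KO 29 of 52 members were lower than in the parental cells and 0 were higher, where 17.8% of all genes tested were lower and 20.1% higher. The members' median change was −0.35, and that of all genes lay within 0.018 of 0 in each comparison. The members lower were 55.8% of the list. The count of 0 higher members was also 0 at an unadjusted p under 0.05 and 0 by edgeR's quasi-likelihood test.

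Members were also lower in the lines that lack another factor together with MITF. In the MITF/TFE3 DKO 34 members (65.4%) were lower and 0 higher (0 by edgeR and at an unadjusted p under 0.05 as well), against 21.7% and 20.2% of all genes. In the MITF/TFEB DKO 39 members (75%) were lower and 1, Dtl, was higher, against 27.3% and 28.8% of all genes. The TKO had 24 members (46.2%) lower and 2, Dtl and Tk1, higher, against 27.9% and 28.3% of all genes. Median changes were −0.41 in MITF/TFE3 DKO cells, −0.55 in MITF/TFEB DKO cells and −0.26 in TKO cells. By the rule of a 2-fold change with an unadjusted p under 0.05, 1 member fell in MITF KO cells (2.99% of all genes did), 6 in MITF/TFE3 DKO cells (2.37%), 7 in MITF/TFEB DKO cells (4.94%) and 5 in TKO cells (6.41%). In each of these lines most of the members called lower by adjusted p fell by less than 2-fold.

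With MITF present, the members moved little or rose. In the TFE3 KO 12 members (23.1%) were higher and 0 lower, against 4.5% and 7.78% of all genes, with a median change of 0.20. By edgeR 0 were lower too, and 1 was at an unadjusted p under 0.05. The TFEB KO had 3 members (5.77%) higher and 0 lower (0 by edgeR and 0 at an unadjusted p under 0.05), against 2.25% and 2.59% of all genes, with a median of 0.08. The TFEB/TFE3 DKO had 2 higher and 1 lower, against 4.72% and 4.09% of all genes, with a median of −0.02. The count in TFE3 KO cells rested on single libraries, since it was 6 without TFE3 KO replicate 2 and 7 without parental replicate 1. Of the 2 higher members of the TFEB/TFE3 DKO, 1 was left without any 1 of 5 of the 6 libraries compared.

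**Figure D1:**
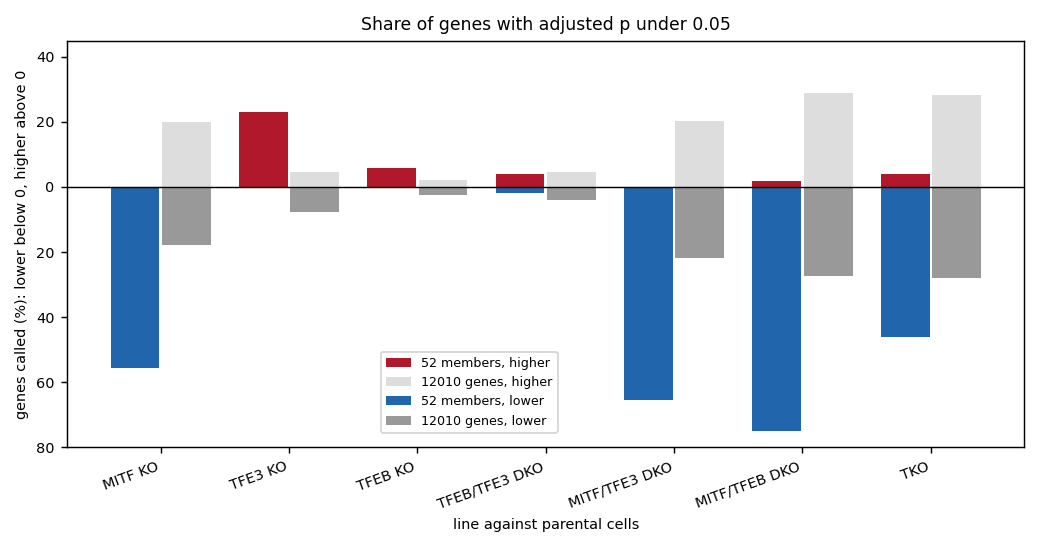
Share of genes called at an adjusted p under 0.05 in each line against the parental cells, with higher genes above 0 and lower genes below 0, for the 52 members (coloured) and the 12010 genes (grey), in percent. The members' bars point down in the 4 lines without MITF, to 75% in MITF/TFEB DKO cells, and up in TFE3 KO cells, to 23.1%.

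The mean of the 4 lines without MITF was then set against that of the 4 lines with MITF. Of 52 members, 45 were called lower and 0 higher (0 higher by edgeR and 0 at an unadjusted p under 0.05). Calls over all genes were 33.7% lower and 35.1% higher. The members' differences ran from −1.80 to −0.001. The members' median difference was −0.47. For 13 members the highest of the 12 libraries without MITF was below the lowest of the 12 with it, namely Orc1, Cdc6, Cdt1, Mcm10, Mcm2, Mcm3, Mcm7, Gins1, Pold3, Rfc3, Rrm2, Dnmt1 and Chaf1a. Such a gap was found in that direction for 3.46% of all genes, and in the other direction for 4.2% of all genes and for 0 members. By the test of any difference among the 8 lines, 47 of 52 members differed, against 86.6% of all genes, and Fen1, Mcm4, Rpa2, Cdc45 and Gins4 did not pass.

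The members' median was also taken in each library. The median over members of the log2 difference from the parental mean was −0.34 to −0.32 in the 3 libraries of the MITF KO, −0.43 to −0.36 in MITF/TFE3 DKO cells, −0.53 to −0.46 in MITF/TFEB DKO cells and −0.30 to −0.26 in TKO cells. It was −0.01 to 0.02 in the parental cells, 0.16 to 0.18 in TFE3 KO cells, 0.06 to 0.13 in TFEB KO cells and −0.06 to 0.02 in TFEB/TFE3 DKO cells. The libraries of each line without MITF were all below those of each line with MITF.

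**Figure D2:**
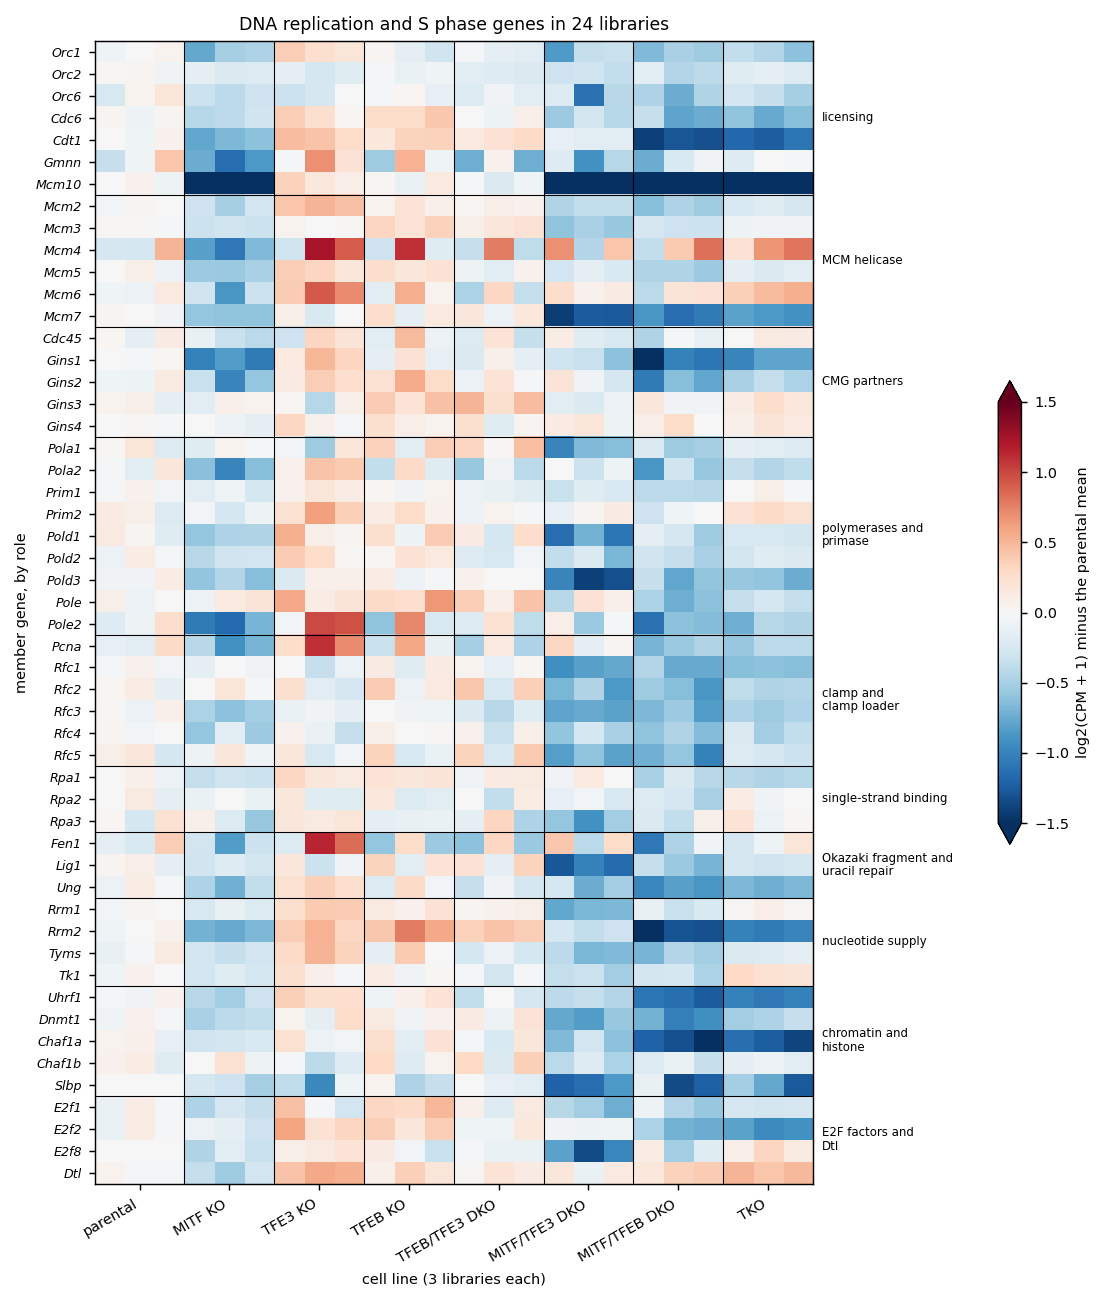
Log2(CPM + 1) minus the parental mean for the 52 members (rows, grouped by role) in the 24 libraries (columns, 3 for each line), with blue lower and red higher than the parental mean and the colour limited at 1.5. Mcm10 is dark in all 12 libraries without MITF, and Mcm4, Fen1 and Pole2 vary between libraries of 1 line.

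Mcm10, grouped with the licensing genes although its product acts after origins are licensed, had the largest fall of any member in each line without MITF. MCM10, which helps to start the helicase at origins, had 79.5, 82.9 and 75.2 CPM of its messenger RNA in the parental cells and 22.5, 19.7 and 25 CPM in MITF KO cells. It stayed there in MITF/TFE3 DKO cells (21.8, 24.6 and 26.8 CPM), in MITF/TFEB DKO cells (19.6, 19.8 and 22.3 CPM) and in TKO cells (20.9, 22.7 and 26.3 CPM). The 12 libraries with MITF lay at 68.2 CPM or above and the 12 without it at 26.8 CPM or below, so the groups did not overlap. The changes against the parental cells were −1.78 ± 0.11 (SE; adjusted p = 4.5e-12), −1.66 (3.8e-11), −1.90 (8.9e-13) and −1.73 (3.4e-12) in the order given. In the TFE3 KO (101.1, 88.2 and 85.1 CPM) Mcm10 did not pass the test, with a change of 0.20 and a 95% interval of −0.02 to 0.43, and in TFEB KO cells the interval was −0.20 to 0.25.

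Cdt1, whose product loads MCM and is destroyed once S phase starts, followed another order. It had 167, 161 and 175 CPM in the parental cells, 97.4, 105 and 109 CPM in MITF KO cells and 154, 150 and 150 CPM in MITF/TFE3 DKO cells. In the MITF/TFEB DKO it was at 63.1, 68.5 and 66.8 CPM and in TKO cells at 73.7, 70.3 and 78.2 CPM. The 2 lines lacking both MITF and TFEB were thus the lowest, with changes of −1.33 ± 0.07 (adjusted p = 5.9e-13) and −1.17 ± 0.07 (4.3e-12), while the MITF/TFE3 DKO, at −0.15 with a 95% interval of −0.30 to 0.01, did not pass. Relative to the median change of the 100 genes nearest to it on its chromosome, Cdt1 was at −0.815 in MITF KO cells, −0.395 in MITF/TFE3 DKO cells, −0.831 in MITF/TFEB DKO cells and −0.716 in TKO cells, and the MITF/TFEB DKO differed from the MITF KO by −0.015 (adjusted p = 0.89). Cdt1 rose with MITF present, to 232, 226 and 204 CPM in TFE3 KO cells (0.39 ± 0.07, adjusted p = 0.00086) and 188, 212 and 213 CPM in TFEB KO cells (0.28 ± 0.07, 0.025). The second rise was lost, at adjusted p of 0.084 to 0.13, without parental replicate 1 or 2 or TFEB KO replicate 2 or 3. This group of 7 genes also holds Gmnn, an inhibitor of licensing. In it 6 were lower in MITF KO cells, 5 in MITF/TFE3 DKO cells, 6 in MITF/TFEB DKO cells and 6 in TKO cells. The shares of all genes lower there were 17.8%, 21.7%, 27.3% and 27.9%. All 7 members were lower over the 4 lines without MITF, against 33.7% of all genes. In TKO cells the calls of Orc6 (adjusted p = 0.049) and Orc2 (0.039) were lost in 5 and 4 of 6 fits that left out 1 library. The call of Orc2 in MITF KO cells (0.035) was lost in 4 of 6.

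**Figure D3:**
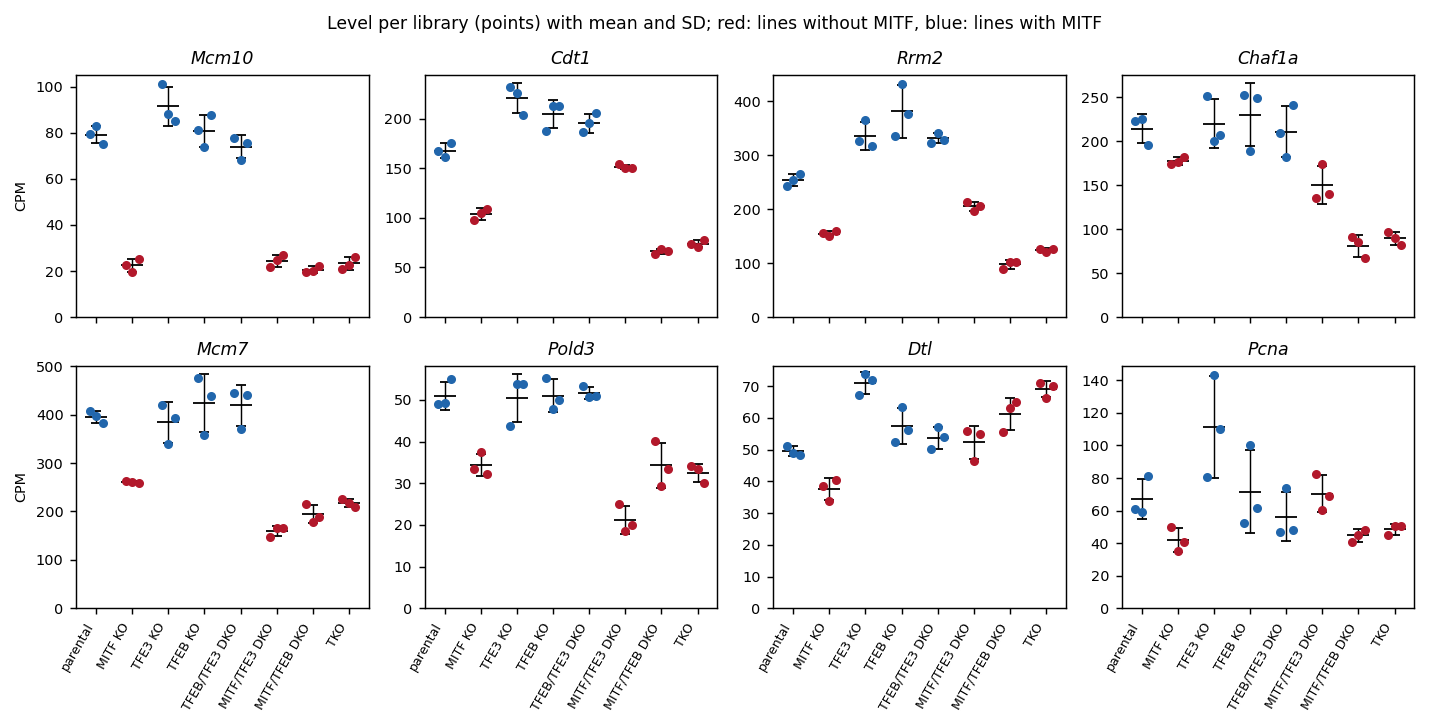
Level (CPM, linear axis from 0) of 8 members in each library (points), with the mean and SD of each line (n = 3), in red for lines without MITF and blue for lines with it. Mcm10 splits into these groups with no overlap, Cdt1, Rrm2 and Chaf1a are lowest in MITF/TFEB DKO and TKO cells, Mcm7 and Pold3 are lowest in MITF/TFE3 DKO cells, and Dtl is highest in TFE3 KO and TKO cells.

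The 6 subunits of the MCM helicase ring did not all move alike. Mcm7 fell in all lines without MITF, from 407, 396 and 382 CPM in the parental cells to 263, 261 and 259 CPM in MITF KO cells. It was lower again at 148, 166 and 165 CPM in MITF/TFE3 DKO cells, 215, 178 and 188 CPM in MITF/TFEB DKO cells and 227, 217 and 209 CPM in TKO cells. The MITF/TFE3 DKO was the lowest line with no overlap with any other. It was at −1.31 ± 0.10 (adjusted p = 6.8e-10) against the parental cells and −0.71 (1e-05) against the MITF KO. The neighbours of Mcm7 were at −0.412 there, −0.195 in MITF/TFEB DKO cells and −0.08 in MITF KO cells. Relative to them the MITF/TFE3 DKO stood closer to the MITF/TFEB DKO. At the 3′ end of Mcm7, 22.8% of 50-base words are shared with another annotated gene and the gene Cops6 overlaps on the opposite strand, so a share of its reads is uncertain.

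Mcm3 moved less and in both directions. Its level was 365, 366 and 352 CPM in the parental cells, 288, 292 and 289 CPM in MITF KO cells and 237, 257 and 243 CPM in MITF/TFE3 DKO cells. In the TKO it was 342, 348 and 347 CPM, a change of −0.06 that did not pass (95% interval −0.19 to 0.06). The TFEB KO was higher, at 450, 417 and 457 CPM (0.29 ± 0.06, adjusted p = 0.0043).

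Mcm5, named after its values were seen, had 182, 195 and 173 CPM in the parental cells, 125, 124 and 130 CPM in MITF KO cells and 133, 133 and 125 CPM in MITF/TFEB DKO cells. It was at 150, 166 and 156 CPM in MITF/TFE3 DKO cells, 167, 158 and 163 CPM in TKO cells and 237, 228 and 207 CPM in TFE3 KO cells. The libraries of these 4 lines without MITF were all below the parental ones and those of the TFE3 KO all above them, with changes of −0.53 ± 0.07 in MITF KO cells (adjusted p = 3.9e-06) and 0.29 ± 0.07 in TFE3 KO cells (0.011). Its call in TKO cells (0.049) was lost without any 1 of 5 of the 6 libraries compared, and that in MITF/TFE3 DKO cells (0.018) without parental replicate 2 or MITF/TFE3 DKO replicate 1.

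Mcm6 and Mcm4 spread widely between libraries of 1 line. For Mcm6 the TFE3 KO was higher than the parental cells at 291, 422 and 365 CPM against 214, 211 and 247 CPM (0.67 ± 0.20, adjusted p = 0.034), and the call was lost without parental replicate 1 or 2 or TFE3 KO replicate 2 or 3. For Mcm4, which was named after its values were seen, the same libraries had 40.7, 120 and 95.4 CPM against 42.2, 41.9 and 72.1 CPM. These 2 groups overlapped, and the change of 0.62 had a 95% interval of −0.23 to 1.46. Of the 6 MCM genes, 3 were lower in TKO cells and 4 in each of the other lines without MITF. The shares of all genes lower were 27.9% in TKO cells and 17.8% to 27.3% in the others. Mcm2, Mcm5 and Mcm6 were higher in TFE3 KO cells, and of these only Mcm2 was left without TFE3 KO replicate 2, while Mcm5 was also lost without parental replicate 3.

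Of CDC45 and the GINS complex, which join MCM to form the active helicase, Gins1 moved most. It had 20.1, 20.1 and 20.7 CPM in the parental cells, 9.56, 11 and 9.21 CPM in MITF KO cells, 16.4, 15.9 and 12.9 CPM in MITF/TFE3 DKO cells, 6.51, 9.53 and 9.04 CPM in MITF/TFEB DKO cells and 9.73, 11.3 and 11.3 CPM in TKO cells. The falls were −0.97 ± 0.14 (adjusted p = 9.1e-06), −0.41 (0.021), −1.20 (1.7e-07) and −0.86 (1.8e-05), and the second was lost without parental replicate 3 or MITF/TFE3 DKO replicate 3. Against the MITF KO, the MITF/TFE3 DKO was higher by 0.55 ± 0.14 (adjusted p = 0.0038).

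Gins3 was called higher in a line with MITF, with 39.3, 40.4 and 34.2 CPM in the parental cells and 54.3, 45.1 and 52.6 CPM in TFEB/TFE3 DKO cells (0.41 ± 0.12, adjusted p = 0.036). That call was lost without any 1 of the 3 parental libraries or without TFEB/TFE3 DKO replicate 1 or 3, and relative to its neighbours, which were at 0.355 there, the change was 0.05 (adjusted p = 0.87). Over the 4 lines without MITF Gins3 was called lower (−0.152, adjusted p = 0.029), a call lost in 9 of 24 fits that left out 1 library. It was called lower in none of these lines on its own, and in TKO cells its change was 0.177. Gins4 and Cdc45, named after their values were seen, passed in none of the comparisons with the parental cells, and for Gins4 in MITF KO cells the 95% interval was −0.29 to 0.14. Over the 5 genes of this group, 2, 1, 2 and 2 were lower in MITF KO, MITF/TFE3 DKO, TKO and MITF/TFEB DKO cells in that order. All genes had 17.8%, 21.7%, 27.9% and 27.3% lower in these lines, so the count of 1 is near its share.

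The 9 genes of DNA polymerases and primase were all lower over the 4 lines without MITF, against 33.7% of all genes. Of these calls, that of Prim2 (−0.131, adjusted p = 0.046) was lost in 13 of 24 fits that left out 1 library. Prim2 was called lower in no single line, and in TKO cells its change was 0.244. Pold3, a subunit of polymerase delta, had 48.9, 49.2 and 54.9 CPM in the parental cells, 33.4, 37.4 and 32.3 CPM in MITF KO cells and 25.1, 18.7 and 19.9 CPM in MITF/TFE3 DKO cells. It was at 40, 29.4 and 33.4 CPM in MITF/TFEB DKO cells and 34.1, 33.5 and 30.1 CPM in TKO cells. The MITF/TFE3 DKO was below every other library, at −1.24 ± 0.12 (adjusted p = 2.1e-08), and the other 3 lines without MITF overlapped each other, at −0.56 (0.00065), −0.57 (0.00026) and −0.63 (8.2e-05).

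Pole2, a subunit of polymerase epsilon, fell in MITF KO cells from 13.8, 15.1 and 19.3 CPM to 7.11, 6.55 and 9.43 CPM (−0.97 ± 0.29, adjusted p = 0.0095), a call lost without parental replicate 3. Its libraries ranged from 10.1 to 26.8 CPM within the TFEB KO, and 43.5% of the 50-base words at its 3′ end are shared with another annotated gene on the same strand, so its level is uncertain. Counts for the group were 5 lower in MITF KO cells, 5 in MITF/TFE3 DKO cells, 7 in MITF/TFEB DKO cells and 1, Pold3, in TKO cells. Shares over all genes were 17.8%, 21.7%, 27.3% and 27.9%, so the count in TKO cells is below its share.

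Among the clamp and its loader, Rfc3 was lower in all 4 lines without MITF. RFC3 is a subunit of the loader that opens PCNA onto DNA. Its gene was at 88.1, 81.9 and 91.9 CPM in the parental cells, 62.3, 56.7 and 60.8 CPM in MITF KO cells, 50, 51.4 and 49.6 CPM in MITF/TFE3 DKO cells, 54.4, 59.6 and 48.5 CPM in MITF/TFEB DKO cells and 62.8, 60 and 63.2 CPM in TKO cells. All 12 libraries without MITF were below the 12 with it. The changes ran from −0.49 ± 0.08 in TKO cells (adjusted p = 2.1e-05) to −0.78 ± 0.08 in MITF/TFE3 DKO cells (7.4e-08). The neighbours of Rfc3 were at −0.381 in MITF/TFE3 DKO, −0.034 in MITF KO, −0.194 in MITF/TFEB DKO and −0.198 in TKO cells. Relative to them the MITF/TFE3 DKO was not the lowest line. The TFEB/TFE3 DKO (75, 65 and 77 CPM) was also lower, with a change of −0.27 ± 0.08 (0.037), but without parental replicate 1 or 3 or TFEB/TFE3 DKO replicate 1 or 2 that call was lost.

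Pcna, the clamp itself, was noisier. It had 61.1, 59.3 and 81.5 CPM in the parental cells, 49.9, 34.9 and 40.9 CPM in MITF KO cells and 80.7, 144 and 110 CPM in TFE3 KO cells. The fall in MITF KO cells was −0.67 ± 0.22 (adjusted p = 0.017) and was lost without parental replicate 3 or MITF KO replicate 2. The rise in TFE3 KO cells was 0.69 ± 0.22 (0.038) and was lost, at adjusted p of up to 0.24, without parental replicate 1 or 2 or TFE3 KO replicate 2 or 3. Of the 6 genes of the group, 3 were lower in MITF KO cells, 5 in MITF/TFE3 DKO cells, 6 in MITF/TFEB DKO cells and 4 in TKO cells. Against these stood 17.8%, 21.7%, 27.3% and 27.9% of all genes. The calls of Rfc2 and Rfc4 in TKO cells were both lost without parental replicate 1 or TKO replicate 2, which left 2.

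RPA coats single-stranded DNA at the fork, and its large subunit Rpa1 was lower in 3 of the 4 lines without MITF. Its level was 184, 193 and 172 CPM in the parental cells, 143, 148 and 146 CPM in MITF KO cells, 130, 157 and 137 CPM in MITF/TFEB DKO cells and 136, 134 and 136 CPM in TKO cells. The MITF/TFE3 DKO, at 175, 202 and 184 CPM, overlapped the parental cells, with a change of 0.03 and a 95% interval of −0.13 to 0.19, and it was higher than the MITF KO by 0.36 ± 0.08 (adjusted p = 0.0011). Of the other two subunits, Rpa2 was called lower in MITF/TFEB DKO cells, a call lost without parental replicate 1 or 2 or MITF/TFEB DKO replicate 3 at adjusted p of up to 0.16, and Rpa3, which had 2.64 to 7.54 CPM and shares 22.4% of its 3′ words with pseudogenes, fell in MITF/TFE3 DKO cells.

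Ung removes uracil from DNA and was grouped with Fen1 and Lig1, which finish the lagging strand. It had 75.2, 86.5 and 79.5 CPM in the parental cells, 57.9, 48.2 and 62.1 CPM in MITF KO cells, 66.8, 47.5 and 55.4 CPM in MITF/TFE3 DKO cells, 40.3, 45.4 and 43.6 CPM in MITF/TFEB DKO cells and 50.1, 48 and 50.1 CPM in TKO cells. Every library of these 4 lines was below the parental ones, with falls from −0.51 ± 0.12 in MITF/TFE3 DKO cells (adjusted p = 0.002) to −0.88 ± 0.12 in MITF/TFEB DKO cells (2.2e-06). Lig1, named after its values were seen, fell from 1448, 1507 and 1281 CPM to 582, 699 and 632 CPM in MITF/TFE3 DKO cells (−1.15 ± 0.14, adjusted p = 6.3e-07). It did not pass in MITF KO cells, with a 95% interval of −0.54 to 0.03.

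All 4 genes of nucleotide supply were lower in the MITF KO and in both DKOs without MITF, and Rrm2 alone in TKO cells. In MITF KO cells the calls of Tk1, Tyms and Rrm1 (adjusted p of 0.03, 0.037 and 0.038) were all lost without any 1 of parental replicates 2 and 3 and MITF KO replicates 1 and 3, which left Rrm2 alone. RRM2 is the S phase subunit of ribonucleotide reductase, which makes deoxynucleotides. Rrm2 had 243, 254 and 265 CPM in the parental cells, 155, 150 and 159 CPM in MITF KO cells and 214, 197 and 205 CPM in MITF/TFE3 DKO cells. It was lowest in MITF/TFEB DKO cells (88.7, 103 and 102 CPM) and in TKO cells (126, 121 and 127 CPM). With MITF present it was higher than in the parental cells in all 3 knockouts, at 327, 366 and 317 CPM in TFE3 KO cells, 336, 433 and 376 CPM in TFEB KO cells and 324, 342 and 329 CPM in TFEB/TFE3 DKO cells. These 3 lines did not overlap with the parental cells, and the rises were 0.40 ± 0.08 (adjusted p = 0.0021), 0.58 ± 0.08 (7.1e-05) and 0.38 ± 0.08 (0.0046). The falls were −0.71 ± 0.08 in MITF KO cells (3.6e-07), −0.31 in MITF/TFE3 DKO cells (0.0048), −1.37 in MITF/TFEB DKO cells (2.5e-12) and −1.02 in TKO cells (3.5e-10).

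Rrm1, the large subunit of the same enzyme, named after its values were seen, had 204, 216 and 210 CPM in the parental cells, 178, 194 and 182 CPM in MITF KO cells and 122, 130 and 131 CPM in MITF/TFE3 DKO cells. It was at 194, 167 and 179 CPM in MITF/TFEB DKO cells and 213, 226 and 213 CPM in TKO cells. The MITF/TFE3 DKO was below every other library, at −0.71 ± 0.07 against the parental cells (adjusted p = 3.2e-08), and the TKO overlapped the parental cells. The neighbours of Rrm1 were at −0.346 in MITF/TFE3 DKO cells and 0.146 in MITF/TFEB DKO cells. Relative to them these lines stood close to each other.

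Tk1, which salvages thymidine, changed sign among lines without MITF. It had 241, 262 and 249 CPM in the parental cells, 195, 201 and 174 CPM in MITF/TFE3 DKO cells, 208, 209 and 180 CPM in MITF/TFEB DKO cells and 308, 293 and 287 CPM in TKO cells. The TKO was above both DKOs with no overlap, by 0.64 ± 0.09 (adjusted p = 1.6e-06) and 0.57 ± 0.09 (4.3e-05). Its rise of 0.24 ± 0.09 over the parental cells (0.022) was lost without parental replicate 1 or 3 or TKO replicate 1.

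Of the chromatin genes of S phase, Chaf1a and Uhrf1 were lowest in the lines that lack both MITF and TFEB. CHAF1A, the large subunit of the histone chaperone CAF-1, had 222, 225 and 196 CPM of its messenger RNA in the parental cells, 174, 176 and 182 CPM in MITF KO cells and 135, 174 and 140 CPM in MITF/TFE3 DKO cells. It was at 91.4, 84.9 and 66.6 CPM in MITF/TFEB DKO cells and 96.7, 90.2 and 81.7 CPM in TKO cells. These 2 lines overlapped each other and lay below all others, at −1.40 ± 0.13 (adjusted p = 5.3e-09) and −1.25 ± 0.13 (3.1e-08), while the MITF KO, at −0.27, did not pass (95% interval −0.54 to 0.01). At its 3′ end Chaf1a overlaps Ubxn6 on the opposite strand.

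Uhrf1, which brings the DNA methyltransferase DNMT1 to newly copied DNA, had the same order. Its level was 129, 125 and 136 CPM in the parental cells, 97.1, 90.3 and 104 CPM in MITF KO cells and 98.4, 100.8 and 95.5 CPM in MITF/TFE3 DKO cells, but 60.8, 58.5 and 54.2 CPM in MITF/TFEB DKO cells and 63.8, 61.1 and 63.9 CPM in TKO cells. The falls were −0.42 ± 0.09 (adjusted p = 0.00061), −0.40 (0.00085), −1.15 (1.3e-10) and −1.03 (7.6e-10). All 5 genes of this group were lower in MITF/TFE3 DKO cells, against 21.7% of all genes. In each of the TKO (27.9%) and the MITF/TFEB DKO (27.3%) 4 were lower, and 2 in MITF KO cells (17.8%). The call of Chaf1b in MITF/TFE3 DKO cells (−0.358, adjusted p = 0.046) was lost in 4 of 6 fits that left out 1 library. Over the 4 lines without MITF its call (−0.165, 0.043) was lost in 16 of 24. Chaf1a and Uhrf1 lie near each other on chromosome 17, so they are not separate cases. The neighbours of Chaf1a and Uhrf1 were at 0.262 and 0.284 in MITF KO cells. They were at −0.142 and −0.099 in MITF/TFEB DKO cells and −0.161 and −0.121 in TKO cells. Relative to neighbours, Chaf1a was also called lower in MITF KO cells. The falls of both from the MITF KO to the MITF/TFEB DKO were still called.

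The E2F factors control many of the genes above, and 4 genes were grouped as E2F factors and Dtl. Of these, 1 (Dtl) was lower in MITF KO cells, 2 in MITF/TFE3 DKO cells, 2 in MITF/TFEB DKO cells and 1 in TKO cells. Among all genes the shares were 17.8%, 21.7%, 27.3% and 27.9%, and with 4 genes a count of 1 is near these. E2f2, an activator, had 73.1, 84.8 and 77.8 CPM in the parental cells, 73.9, 70.8 and 63 CPM in MITF KO cells, 75.3, 74.1 and 75.1 CPM in MITF/TFE3 DKO cells, 56.2, 47.8 and 46.4 CPM in MITF/TFEB DKO cells and 44.6, 39.9 and 41.2 CPM in TKO cells. It fell in MITF/TFEB DKO and TKO cells, with changes of −0.64 ± 0.10 (adjusted p = 1.1e-05) and −0.89 ± 0.10 (9.9e-08), and rose in TFE3 KO cells to 119, 91.2 and 98.2 CPM (0.38 ± 0.10, 0.017), a call lost without parental replicate 1 or TFE3 KO replicate 1. E2f8, a repressor, named after its values were seen, had 30, 30.1 and 30 CPM in the parental cells and 16.8, 11.2 and 14.8 CPM in MITF/TFE3 DKO cells (−1.04 ± 0.14, 4.9e-06), and 32.3, 37.7 and 33.1 CPM in TKO cells.

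Dtl, part of the ubiquitin ligase that destroys CDT1 in S phase, rose in 3 lines. It had 51.2, 49 and 48.3 CPM in the parental cells, 38.5, 33.8 and 40.4 CPM in MITF KO cells, 67.2, 73.8 and 71.9 CPM in TFE3 KO cells, 55.4, 63 and 64.9 CPM in MITF/TFEB DKO cells and 70.9, 66.3 and 70 CPM in TKO cells. The TFE3 KO (0.51 ± 0.09, adjusted p = 0.00068) and the TKO (0.47 ± 0.09, 0.00017) stood highest and overlapped each other. The rise in MITF/TFEB DKO cells was 0.29 ± 0.09 (0.01) and was lost without MITF/TFEB DKO replicate 3, at 0.052.

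The members were also compared between the lines that lack MITF and a second factor. Against the MITF KO, the MITF/TFE3 DKO had 12 members higher and 15 lower (18.1% and 19.7% of all genes). The higher ones included Cdt1 (0.54 ± 0.07, adjusted p = 6.9e-06), Rrm2 (0.41 ± 0.08, 0.00058), Pcna and Dtl, and the lower ones Rfc1 (−0.76 ± 0.10, 3.3e-06), Mcm7 and Rrm1 (−0.53 ± 0.07, 4.3e-06). Against the MITF KO, the MITF/TFEB DKO had 3 higher and 14 lower (25.1% and 23.9% of all genes), the higher count being 1 without MITF KO replicate 2, MITF/TFEB DKO replicate 2 or MITF/TFEB DKO replicate 3. Its lower members included Chaf1a (−1.13 ± 0.13, 2.2e-07), Uhrf1 (−0.74 ± 0.09, 2.8e-07) and Cdt1 (−0.64 ± 0.07, 1.8e-07).

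The TKO had 18 members higher and 9 lower than the MITF/TFE3 DKO (26.6% and 24.2% of all genes). E2f8 (1.23 ± 0.14, adjusted p = 2.1e-07) and Lig1 (0.88 ± 0.14, 1.1e-05) were among the higher, and Cdt1 (−1.02 ± 0.07, 7.3e-11) and E2f2 (−0.82 ± 0.10, 4.2e-07) among the lower. Against the MITF/TFEB DKO the TKO had 11 higher and 0 lower (5.41% and 6.99% of all genes), with 0 lower by edgeR and 1 at an unadjusted p under 0.05. Tk1, Prim1 (0.42 ± 0.07, adjusted p = 0.00017) and Dnmt1 (0.44 ± 0.10, adjusted p = 0.0048) were among the higher, and their number was 7 without TKO replicate 2. Between the single knockouts, 35 members (67.3%) were higher and 0 lower in TFE3 KO cells than in MITF KO cells (24.4% and 25.9% of all genes), with 0 lower by edgeR and at an unadjusted p under 0.05. Genes named in these 2 paragraphs beyond the rule for named genes were chosen after their values were seen.

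Whether the effect of losing TFE3 or TFEB depended on MITF was tested as a difference of differences. The effect of TFE3 loss was lower without MITF than with it for 12 members (23.1%) and higher for 0, also by edgeR and at an unadjusted p under 0.05 (10% and 10.2% of all genes), with a median difference of −0.23. For Mcm7 it was −0.66 ± 0.14 (adjusted p = 0.0016) and for Pold3 −0.66 ± 0.17 (0.0061). The effect of TFEB loss was lower without MITF for 14 members (26.9%) and higher for 1, Dtl (17.4% and 17.7% of all genes), with a median of −0.20. For Rrm2 the difference was −1.24 ± 0.12 (1.6e-08), and TFEB loss raised it in cells with MITF and lowered it in cells without. For Cdt1 it was −0.93 ± 0.10 (2.6e-07) and for Chaf1a −1.23 ± 0.19 (1.8e-05). Relative to chromosomal neighbours the calls of Mcm7 (−0.334, 0.088) and Cdt1 (−0.101, 0.51) were lost, and those of Pold3 (−0.48, 0.04), Rrm2 (−0.998, 1.9e-06) and Chaf1a (−0.888, 0.00078) were kept. The count for TFE3 loss was then 8, of which 6 were called before, against 8.1% of all genes, and that for TFEB loss 15, of which 10 were, against 13.8%.

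Other genes of the cell cycle were counted in the same way. Of 53 other S phase genes in the table (of a list of 55), 21 were lower and 5 higher in MITF KO cells, 27 and 5 in MITF/TFE3 DKO cells, 31 and 7 in MITF/TFEB DKO cells and 22 and 8 in TKO cells. Of 24 genes of G2 and mitosis, 13, 15, 14 and 4 were lower in these lines and 0, 0, 1 and 6 higher. Of all genes, 17.8%, 21.7%, 27.3% and 27.9% were lower in these lines and 20.1%, 20.2%, 28.8% and 28.3% higher. In TKO cells 16.7% of the G2 and mitosis genes were lower and 25% higher, below both of these shares. There 41.5% of the other S phase genes were lower and 15.1% higher. Of the G2 and mitosis genes, 19 of 24 (79.2%) were higher in TKO cells than in MITF/TFEB DKO cells, against 5.41% of all genes. Neither list had a gene called lower in TFE3 KO or TFEB KO cells. In TFE3 KO cells 3 of the other S phase genes (5.66%) and 0 of the G2 and mitosis genes were higher, against 4.5% of all genes, and in TFEB KO cells 1 and 0 were. Of 10 cyclins, CDK inhibitors and G1 genes (of a list of 12), 4 were higher and 2 lower in MITF KO cells, 4 and 1 in MITF/TFE3 DKO cells and 5 and 3 in each of the TKO and the MITF/TFEB DKO.

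Cdkn1a, whose product p21 stops cells before S phase, was higher in 3 of the lines without MITF and lower in the knockouts that keep it. It was at 789, 822 and 768 CPM in the parental cells, 1019, 1038 and 949 CPM in MITF KO cells, 1163, 1253 and 1233 CPM in MITF/TFE3 DKO cells, 1425, 1097 and 1154 CPM in MITF/TFEB DKO cells and 969, 914 and 822 CPM in TKO cells. In the TFE3 KO it was at 434, 347 and 462 CPM, in TFEB KO cells at 432, 369 and 390 CPM and in TFEB/TFE3 DKO cells at 563, 556 and 531 CPM. All 9 libraries of these 3 lines were below the parental ones, those of the MITF KO and of both DKOs without MITF were above them, and the TKO overlapped them. The changes were 0.34, 0.62, 0.62 and 0.18 in the lines without MITF, of which that in TKO cells did not pass, and −0.95, −0.999 and −0.53 in TFE3 KO, TFEB KO and TFEB/TFE3 DKO cells. Ccnd1, the G1 cyclin D1, was lower in all 4 lines without MITF, with changes of −1.11, −0.57, −1.70 and −0.82. With MITF present, Ccnd1 was also lower in TFEB KO cells (−0.443, adjusted p = 0.006) and in TFEB/TFE3 DKO cells (−0.427, 0.006). In TFE3 KO cells its change of 0.032 did not pass.

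The change of each member was set beside that of the genes around it on its chromosome. For each member the median change of the 100 nearest genes was taken, over 11705 genes with a position. On chromosome 7, all 5 members (Pold1, Pold3, Lig1, Rrm1 and E2f8) were lower in MITF/TFE3 DKO cells with a median of −1.04, where their neighbours were at −0.35 to −0.27. On chromosome 5, all 9 members were lower in MITF/TFEB DKO cells with a median of −0.68, and their neighbours were at −0.39 to −0.13. Chromosome 1 went the other way in TKO cells, where neighbours were at 0.36 to 0.75 and Dtl, at 0.47, sat among neighbours at 0.75. Whether copy number differs between the clones was not tested.

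With the neighbours' change taken off, 29 members were lower in MITF KO cells, 35 in MITF/TFE3 DKO cells, 37 in MITF/TFEB DKO cells and 27 in TKO cells, against 16%, 18.2%, 23% and 24.4% of all genes, and 25, 32, 31 and 19 of these were the same genes as before. Over the 4 lines without MITF, 48 were lower, 44 of them as before, against 30.6% of all genes. Mcm10 stayed at −1.52, −1.64, −1.69 and −1.57. Dtl reversed, to −0.37 in MITF/TFEB DKO cells (adjusted p = 0.0014) and −0.27 in TKO cells (0.015), and Cdt1 in MITF/TFE3 DKO cells became lower, at −0.40 (0.00025). Pcna and Tyms were no longer higher in TFE3 KO cells, with 11 members higher in all against 3.57% of all genes. The rises of Cdt1 and Mcm3 in TFEB KO cells and of Rrm2 in TFEB/TFE3 DKO cells, and the fall of Rfc3 there, were lost too. So were the falls of Pole2, Pcna, Rfc4 and Rrm1 in MITF KO cells and of Rfc2 and Chaf1b in MITF/TFE3 DKO cells. In MITF/TFEB DKO cells the falls of Pola2, Pold2, Pole, Pole2, Pcna, Rpa1, Tk1 and E2f1 were lost. In TKO cells those of Mcm2, Gins2, Rfc2, Ung and Dnmt1 were. Against the MITF KO, the fall of Cdt1 in MITF/TFEB DKO cells and the higher level of Gins1 in MITF/TFE3 DKO cells were no longer called.

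**Figure D4:**
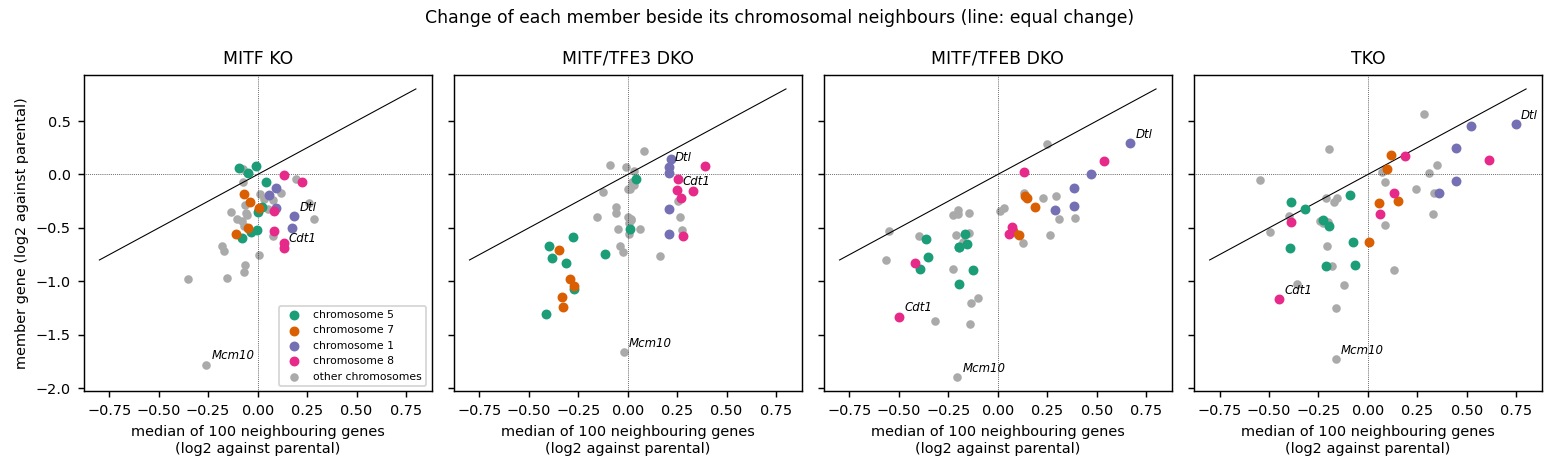
Change of each member (log2 against the parental cells) beside the median change of its 100 chromosomal neighbours in the 4 lines without MITF, with the line of equal change and colours for chromosomes 1, 5, 7 and 8. Most points lie under the line in each panel, Mcm10 lies farthest below it, and Dtl lies under the line although it rose in MITF/TFEB DKO and TKO cells.

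Mcm4 and Fen1, which did not pass the test among lines, were the members that differed most between libraries of 1 line. The SD of log2 values within lines was 0.58 for Mcm4, 0.46 for Fen1, 0.40 for Pole2 and 0.30 for Pcna, against a median of 0.16 over members and 0.18 over all genes. The first principal component of the deviations of libraries from their line means, computed from 9488 genes without the members, held 51.4% of that variance. In 8 of 8 lines Mcm4 was highest in the library with the lowest score, as were Fen1, Mcm6, Rrm2 and Tyms in 7, while Rpa2 and Lig1 were highest in the library with the highest score in 8 and Rfc2 in 7. Mcm10 took neither end regularly, with 3 lines and 2 lines. What sets this component was not tested.

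With the score as a covariate, an alternative added after the data were seen, all members called before were called again, and more were added. Lower members then numbered 39 in MITF KO cells, 35 in MITF/TFE3 DKO cells, 43 in MITF/TFEB DKO cells and 34 in TKO cells, against 25.7%, 26.6%, 31.8% and 32% of all genes, which is also more than before, and 22 were higher in TFE3 KO cells, against 13.8% of all genes. Mcm4 joined as lower in MITF KO cells (−0.85, adjusted p = 4e-10) and as higher in TFE3 KO cells (0.62, 9.3e-07) and in TKO cells (0.57, 4.3e-07).

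**Figure D5:**
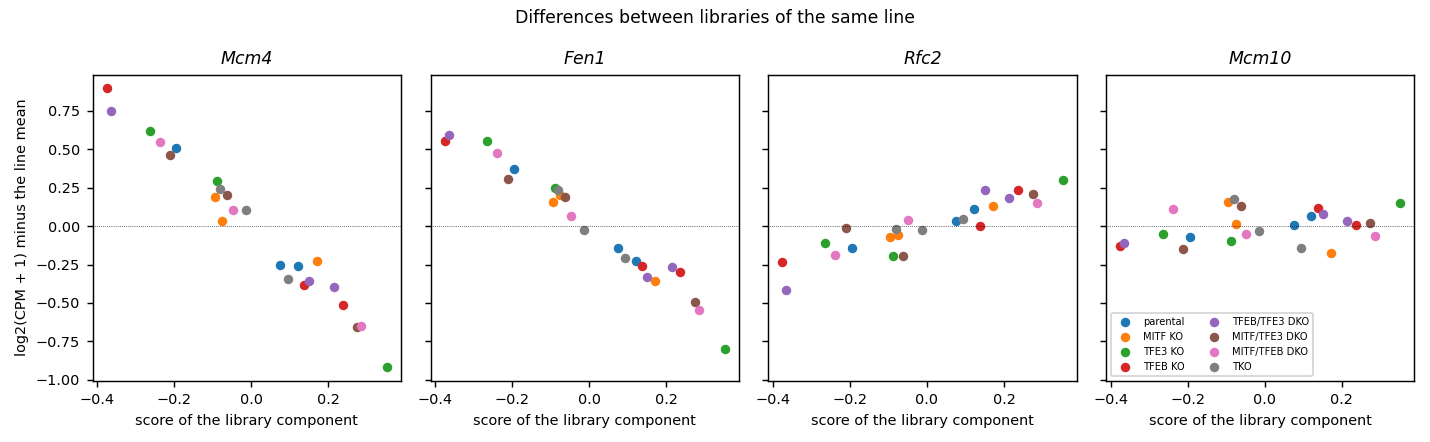
Deviation of each library from its line mean in log2(CPM + 1) for Mcm4, Fen1, Rfc2 and Mcm10, against the score of the library component (no unit), with 1 point for each of 24 libraries and a colour for each line. Mcm4 and Fen1 fall and Rfc2 rises along the score in most lines, while Mcm10 stays within a narrow band.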

How the data were processed

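Messenger RNA of 8 B16-F10 lines was measured with 3′ end sequencing (QuantSeq Forward), in 3 libraries per line. Reads were trimmed by the authors (Trim Galore 0.6.5, cutadapt 2.10) and mapped to mm39 (STAR 2.7.8a), and the authors deposited edgeR-normalised values, a signal of CPM scaled by TMM factors for 12010 genes. The counting tool, annotation and filter are not given in the sources used here. Columns of other samples numbered 0.

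Whole reads were recovered for at least 99.992% of the values of each library (tolerance 0.1 read), giving 18300902 to 26667877 reads, and counting error means the sampling of reads alone. Values had been expected to be CPM with equal totals; the totals ran from 933263.3 to 1081081.3, so they were treated as a signal and the planned test was kept. The test was that of limma 3.58.1, run on log2(CPM + 1), a scale that understates the change of low genes, with all 24 libraries in 1 fit of the line (16 residual degrees of freedom), a variance trend and Benjamini-Hochberg adjustment over 12010 genes. Alternatives were edgeR 4.0.16 on the reads, other pseudocounts and scalings (DESeq2 1.42.0 size factors), a filter, fewer lines, left-out libraries, a replicate block and the study's rule (fold change of at least 2, unadjusted p under 0.05). A covariate and a correction for neighbouring genes were added after the data were seen. The steps were tested on simulated data. R 4.3.3, Python 3.11.15, numpy 2.4.6, pandas 2.3.3, scipy 1.17.1 and matplotlib 3.10.9 were used.

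The members and gene lists were chosen with earlier results of these data known. Members are named as the 3 largest called falls and rises of each line against the parental cells and as the member of each role with the largest F, which gave 19 genes; others are marked as chosen later. Equal replicate numbers did not pair libraries (mean correlation of deviations 0.022, from −0.66 to 0.77). No libraries agreed within sampling noise (lowest chi-square per degree of freedom 4.61).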

Additional observations from a re-analysis of the deposited data

Results flagged for a closer look

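The effect of losing TFE3 or TFEB on a member differed between cells without and with MITF in limma's test of the difference itself for the genes below, as log2 values (the effect without MITF minus the effect with it).

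For TFE3 loss, the difference was −0.868 for E2f8, −0.862 for Rrm1, −0.826 for Lig1, −0.717 for Rfc5, −0.699 for Pold1 and −0.665 for Rfc2. It was −0.662 for Mcm7, −0.661 for Pold3, −0.65 for Tyms, −0.618 for Rfc1, −0.486 for Mcm2 and −0.257 for Mcm3. Without 1 of the 12 libraries at a time, the call was lost in 9 fits for Mcm3, 6 for Rfc2, 5 for Rfc5 and 4 for Pold1. Relative to chromosomal neighbours, Mcm7, Pold1, Rfc1, Rfc2, Tyms and E2f8 were no longer called.

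For TFEB loss, it was −1.236 for Rrm2, −1.228 for Chaf1a, −1.083 for Pole, −0.926 for Cdt1, −0.888 for Rfc2, −0.807 for Uhrf1, −0.783 for Rfc5 and −0.765 for E2f2. It was −0.605 for Rfc1, −0.574 for Cdc6, −0.524 for Mcm7, −0.517 for Dnmt1, −0.292 for Mcm2, −0.268 for Mcm3 and 0.484 for Dtl. Mcm2 was lost in 5 of 12 such fits, and relative to neighbours Cdt1, Mcm2, Rfc1, Rfc5 and Dtl were no longer called. Both tests share the parental cells and the MITF KO. Lines of 3 libraries were not tested for single libraries that stand apart.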

How the results depend on the processing

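Counts of members called are given as higher and lower. By the rule of a 2-fold change and an unadjusted p under 0.05 they fell to 1 lower in MITF KO cells, 0 higher in TFE3 KO cells, 0 higher in TFEB KO cells, 0 and 0 in TFEB/TFE3 DKO cells, 6 lower in MITF/TFE3 DKO cells, 0 and 7 in MITF/TFEB DKO cells and 0 and 5 in TKO cells. By that rule they were 1 and 0 for the MITF/TFE3 DKO and 1 and 1 for the MITF/TFEB DKO, each against the MITF KO. The TKO had 1 and 1 against the MITF/TFE3 DKO and 0 higher against the MITF/TFEB DKO. In TFE3 KO cells 11 were higher than in MITF KO cells, and 3 were lower over the lines without MITF. For the differences of effects they were 0 lower (TFE3 loss) and 0 and 3 (TFEB loss). Shares of all genes by that rule are not given for these comparisons, so these counts cannot be set beside them.

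With the library score as a covariate they were 22 and 1 in TFE3 KO cells, against 13.8% and 14% of all genes. They were 10 and 1 in TFEB KO cells (5.95% and 6%) and 5 and 6 in TFEB/TFE3 DKO cells (9.37% and 11.8%). Higher members were 1 in MITF/TFE3 DKO cells (27.4%), 2 in MITF/TFEB DKO cells (33.1%) and 5 in TKO cells (33.1%). Between MITF/TFEB DKO and MITF KO cells the counts were 6 and 22 (31.2% and 28.4%). For the TKO against the MITF/TFEB DKO they were 24 and 1 (11.1% and 10.9%). In TFE3 KO cells 1 was lower than in MITF KO cells (30%). For the differences of effects they were 1 higher (16.4%, TFE3 loss) and 4 and 23 (25.2% and 23%, TFEB loss). Relative to 100 neighbouring genes, 1 member was higher in TFEB KO cells (1.44% of all genes) and 0 in TFEB/TFE3 DKO cells (3.84%). Also higher were 0 in the MITF/TFEB DKO (26.6%), 1 in TKO cells (25.6%) and 0 for TFEB loss (14.8%). For the TKO against the MITF/TFE3 DKO 5 were lower (20.7%). Dtl reversed relative to its neighbours, to −0.373 in MITF/TFEB DKO cells and −0.273 in TKO cells. Both alternatives were chosen after the data were seen, and the cause was not tested.

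With only the lines compared, a fit of fewer samples, 5 were higher in TFE3 KO cells, 1 in TFEB KO cells, 1 higher and 0 lower in TFEB/TFE3 DKO cells and 5 higher in TKO cells. The TFEB/TFE3 DKO had 4 higher with quantile normalization and 0 lower with median-of-ratios size factors. Over all alternatives, 2022 of 2128 values of the 19 named genes kept their direction and side of the threshold, 71 were no longer called and 33 became called.

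Leaving out 1 library at a time gave 23 to 28 lower in MITF KO cells, 6 to 12 higher in TFE3 KO cells, 1 to 2 higher and 0 to 1 lower in TFEB/TFE3 DKO cells, 0 to 1 higher in MITF/TFEB DKO cells, 1 to 2 higher in TKO cells, 1 to 4 higher between MITF/TFEB DKO and MITF KO cells and 7 to 10 higher for the TKO against the MITF/TFEB DKO. The MITF/TFEB DKO had 0 higher without its replicate 3. Where a line is left with 2 libraries, the fit pools the spread over all lines.

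Replicate numbers did not pair the libraries. With a replicate block, 31 members were lower in MITF KO cells, 22 in TKO cells and 13 for TFE3 loss, 49 differed among lines, and all other counts were as without it.

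Limits are that each knockout is 1 clone, that the lines without MITF share an origin, that the 3′ reads of Pole2, Mcm7, Rpa3 and Rfc2 can be shared with other annotated sequences, and that the depth, though at least 18300902 reads, leaves Rpa3 and Slbp at few CPM.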
